A study of Mus musculus with 12 samples.

Results

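The circadian clock genes described here were Arntl, Clock, Npas2, Per1, Per2, Per3, Cry1, Cry2, Nr1d1 and Dbp, chosen by name as 10 listed symbols. Of these 10 genes, 9 had a probe set with a single gene symbol in the platform annotation and were measured, out of 19938 genes tested in all. Npas2, a relative of Clock, was not analysed here. RNA came from the ascending aorta, the coronary artery, the descending aorta and the superior mesenteric artery, which supplies the intestine, with 3 Affymetrix arrays per vessel and 12 in all. Every mouse was an untreated, wild-type C57BL/6 animal 8 weeks old, so by the labels the groups differ in the vessel. By the submitters' account the aim was to find profiles that follow the embryonic origin of a vessel. Replicates are called biological in the labels, which give neither the time of day of collection nor the number of animals behind an array, so a p-value here reflects how far these samples differ from each other.

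The circadian clock is a feedback loop of transcription that runs in nearly every cell, including the smooth muscle and endothelium of arteries. BMAL1, the product of Arntl, pairs with CLOCK or NPAS2 at E-box elements and activates the Per and Cry genes, Nr1d1 and Dbp. PER and CRY proteins return to the nucleus and inhibit that pair, REV-ERB alpha, the product of Nr1d1, represses Arntl through ROR elements, and DBP activates genes with D-boxes. In tissues with a running clock Arntl messenger RNA is high when Dbp and Nr1d1 are low, and in the arterial wall the clock is known for daily rhythms of vascular tone and blood pressure.

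The elements of that loop can be read in the promoters of several of the measured genes. The stretches below, from RefSeq on GRCm38.p6, are the 250 bases upstream of an annotated start for Per1, Cry1 and Per3, and a 30-base stretch shortly after an annotated start for Arntl. They are shown because between them they carry a motif of each branch of the loop, and capitals mark the motifs: the E-box CACGTG in Per1 and Cry1, its variant CACGTT in Cry1, the D-box TTATGTAA in Per3, and the ROR element TAGGTCA in Arntl, each searched on both strands.
Per1, chr11:69098699-69098948, plus strand: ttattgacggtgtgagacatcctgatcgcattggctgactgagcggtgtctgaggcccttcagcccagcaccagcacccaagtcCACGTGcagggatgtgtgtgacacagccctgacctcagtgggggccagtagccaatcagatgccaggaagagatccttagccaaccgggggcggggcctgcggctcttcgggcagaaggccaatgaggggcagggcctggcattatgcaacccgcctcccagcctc
Cry1, chr10:85185055-85185304, minus strand: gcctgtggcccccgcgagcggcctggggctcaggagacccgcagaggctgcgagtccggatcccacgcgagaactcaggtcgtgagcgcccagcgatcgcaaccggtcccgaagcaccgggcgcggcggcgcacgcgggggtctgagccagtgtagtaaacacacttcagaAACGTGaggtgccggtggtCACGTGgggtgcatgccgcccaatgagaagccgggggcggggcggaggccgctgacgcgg
Per3, chr4:151044666-151044915, minus strand: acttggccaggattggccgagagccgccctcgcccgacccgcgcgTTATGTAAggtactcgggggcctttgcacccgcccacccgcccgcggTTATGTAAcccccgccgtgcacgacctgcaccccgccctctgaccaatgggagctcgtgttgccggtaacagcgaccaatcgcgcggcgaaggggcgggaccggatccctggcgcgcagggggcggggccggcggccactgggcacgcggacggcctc
Arntl, chr7:113207530-113207559, plus strand: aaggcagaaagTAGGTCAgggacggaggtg
Windows of 300 bases around annotated starts, of which 250 lie upstream, numbered 13 for 9 of the 10 listed genes. Per2 had no window, Npas2 was included, Clock had 3 windows, and Arntl and Per1 had 2 each. Counts below are of genes and percentages are of windows, and a gene with several windows had more chances of a match. The E-box was found in 2 of these genes, Per1 and Cry1, against 7.15% of all 32851 windows of that length. The E-box variant was found in Cry1, Cry2 and Nr1d1, against 4.68% of windows. The D-box occurred at 2 places in Per3, against 0.938% of windows with at least 1, and the ROR element was found in Arntl, against 2.61% of windows. Clock, Npas2 and Dbp had none of these motifs in their windows. The matches describe the letters and are no measurement of binding.

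Some arrays carried transcripts of other tissues. The mean of 12 cardiomyocyte markers was between 10.82 and 10.97 in the coronary artery arrays, and between 4.08 and 6.16 in the other 9 arrays, and the mean of 12 smooth muscle markers was between 5.62 and 5.87 in coronary artery and between 6.25 and 9.43 in the others. B cell markers, 8 of 9 listed being measured, averaged 8.08 in ascending aorta replicate 1, against 3.93 and 3.95 in ascending aorta replicates 2 and 3. The B cell mean was also 6.71 in superior mesenteric artery replicate 2 and 6.50 in replicate 3, and replicate 3 had a pancreatic acinar mean of 9.02. Adipocyte markers differed too: those shared by fat depots, 9 of 10 listed being measured, averaged 6.39 to 6.76 in coronary artery, 6.76 to 7.27 in superior mesenteric artery and 7.01 to 9.19 in the aortic segments, and 6 of 9 passed limma's F test. Brown adipocyte markers, 8 of 9 being measured, averaged 5.33 to 5.60 in coronary artery, 4.19 to 4.85 in superior mesenteric artery and 6.45 to 8.05 in the aortic segments, and 5 of 8 passed. Values throughout are log2 levels as deposited, and the median over all genes lay between 4.04 and 4.18 in the 12 arrays. In such bulk samples, fewer cells of a type and less RNA per cell cannot be told apart. Precision is limited by the number of arrays.

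No measured clock gene passed the test for a difference among the 4 vessels. In limma's moderated F test 0 of 9 passed at an adjusted p under 0.05, against 4.72% of all genes, and 0 of 9 had an unadjusted p under 0.05, against 16.4% of all genes. Dbp came nearest to the threshold (limma adjusted p = 0.341), and Clock lay farthest from it (limma adjusted p = 0.925). Differences between vessel means made up a median of 21.2% of the variance of the 9 genes over the arrays, against 33.1% for all genes. Spread among arrays alone also gives such a share, and the share to be met without any vessel effect was not computed. The 21.2% is therefore no measure of an effect of the vessel. The largest difference between vessel means had a median of 0.53 over the 9 genes and 0.43 over all genes.

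**Figure D1:**
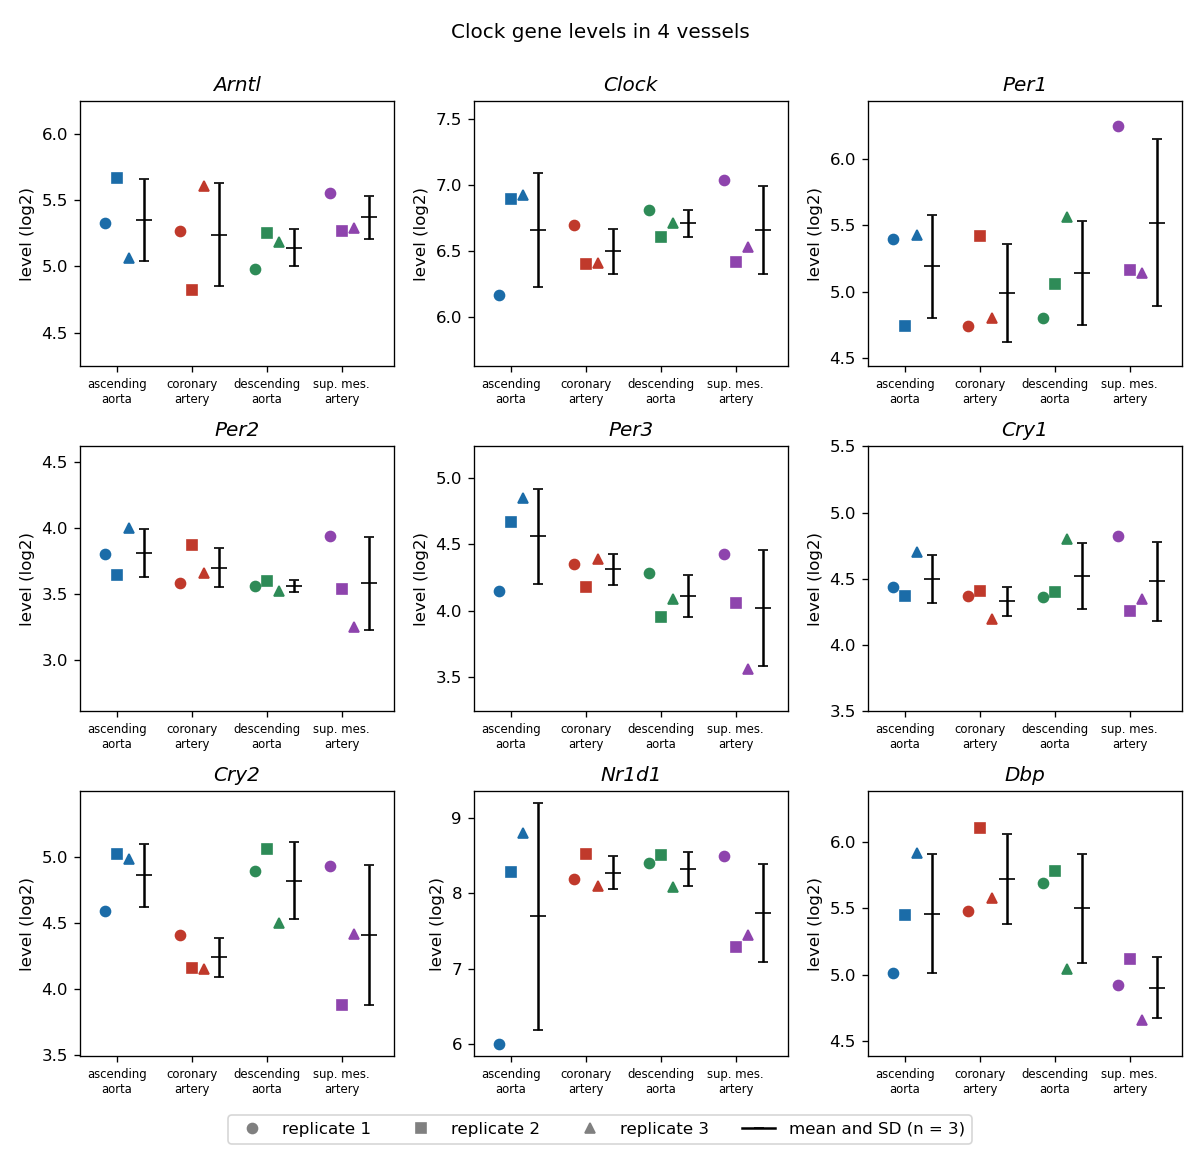
Levels of the 9 measured clock genes in each array (vertical axes, log2, each at least 2 units high), with vessels from left to right as named below each panel, symbols for replicates, and the mean with its SD (n = 3) beside them. The vessels overlap for most genes, and Nr1d1 in ascending aorta replicate 1, at 6.00, lies 2.8 below replicate 3 of that vessel.

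The pairwise comparisons gave the same counts. Between ascending aorta and coronary artery 0 of 9 clock genes passed limma's threshold, against 2.47% of all genes. Against descending aorta, the ascending aorta had 0 of 9 (0.015% of all genes; 0 of 9 at an unadjusted p under 0.05, against 9.64%), and against superior mesenteric artery 0 of 9 (0.176% of all genes; 0 of 9 without overlap between the arrays, against 9.35%). Coronary artery had 0 of 9 against descending aorta (3.14% of all genes) and 0 of 9 against superior mesenteric artery (3.24% of all genes), and descending aorta had 0 of 9 against superior mesenteric artery (3.2% of all genes; 0 of 9 at an unadjusted p under 0.05, against 13.9%). Of the 54 differences, 9 genes in 6 comparisons, 4 had an unadjusted p under 0.05, against 12.2% over all genes and comparisons, and the largest was 0.82 log2 units.

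How small a difference these arrays leave room for varied by gene. For Arntl, Clock, Per2 and Cry1 the 95% intervals of all 6 differences lay within 1 log2 unit, which is 2-fold, on either side of 0. Over the 9 genes this held for 38 of 54 intervals, or 70.4%, against 74.8% over all genes. The intervals of Per1, Per3, Cry2, Dbp and Nr1d1 reached past 2-fold in at least 1 comparison, so the arrays do not bound the difference below that size there. All intervals bound array values only, and which levels lie near background is not known. Per2, with a mean of 3.66, stood at percentile 40.4 of all genes. The share of all genes with all 6 intervals within 2-fold was not counted.

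**Figure D2:**
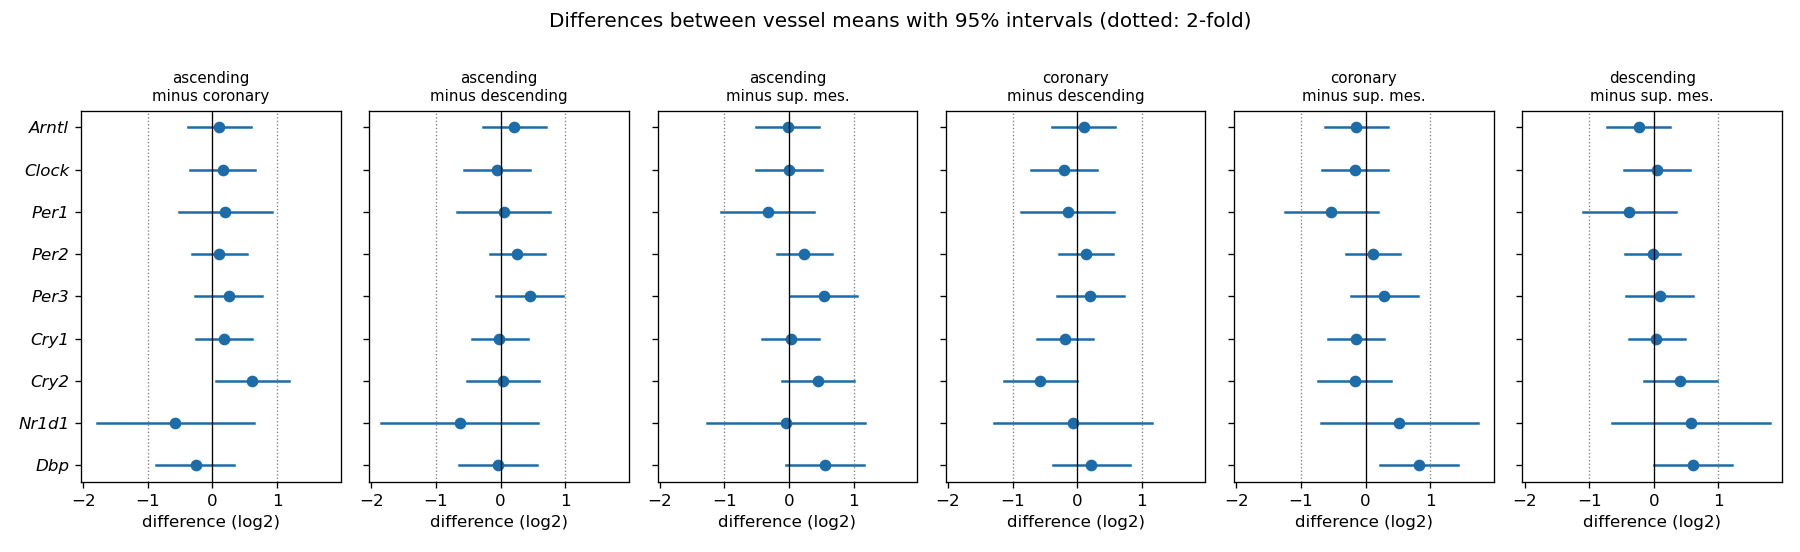
Differences between vessel means (horizontal axis, log2, the vessel named above minus the one below it) with 95% intervals from the limma fit, for the 9 clock genes (rows) and the 6 pairs of vessels (panels), dotted lines marking 2-fold. Intervals of Arntl, Clock, Per2 and Cry1 stay within 2-fold in all 6 panels, and those of Nr1d1 are the widest.

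Of the 2 measured activators, neither passed in any comparison. Arntl, the partner on which the loop depends, was at 5.33, 5.67 and 5.06 in ascending aorta, 5.27, 4.82 and 5.61 in coronary artery, 4.98, 5.25 and 5.18 in descending aorta, and 5.55, 5.27 and 5.29 in superior mesenteric artery. Its arrays overlapped in every pair of vessels except descending aorta and superior mesenteric artery, where the highest descending aorta value, 5.25, lay just under the lowest superior mesenteric artery value, 5.27, and that difference was -0.23 ± 0.22 (SE, limma adjusted p = 0.712). It was the only one of the 9 genes without overlap in that pair, against 22.9% of all genes. Clock, which encodes BMAL1's partner, was at 6.17, 6.89 and 6.92 in ascending aorta, 6.70, 6.40 and 6.41 in coronary artery, 6.81, 6.61 and 6.71 in descending aorta, and 7.04, 6.42 and 6.53 in superior mesenteric artery. Clock was lowest in ascending aorta replicate 1 and highest in replicate 1 of superior mesenteric artery, and the 4 vessel means stood between 6.50 and 6.71. Ordered by its mean, Arntl was highest in superior mesenteric artery, then in ascending aorta, in coronary artery and in descending aorta, and Clock was highest in descending aorta and lowest in coronary artery. As no comparison passed limma's threshold for any of the 9 genes, neither did vessels next to each other in such an order.

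The Period genes, which encode the inhibitors that accumulate each day, likewise had no member past the threshold in any comparison. Per1, which also responds to acute signals such as glucocorticoids, was at 5.40, 4.74 and 5.43 in ascending aorta, 4.74, 5.42 and 4.80 in coronary artery, 4.80, 5.06 and 5.56 in descending aorta, and 6.25, 5.16 and 5.14 in superior mesenteric artery. A single array, superior mesenteric artery replicate 1, stood above all others, and the vessels overlapped. In that array the mean of 11 measured glucocorticoid-responsive genes was 6.92, against 5.84 and 5.94 in the other arrays of that vessel, and 15 immediate early genes averaged 5.85, against 5.64 and 5.72. Tissue markers differed in that array too, in both directions. Its smooth muscle mean was 9.43, against 6.25 and 6.71, and its endothelial mean was 7.83, against 5.92 and 6.91. Its B cell mean was 4.75, against 6.71 and 6.50. The part of any of these lists in the Per1 value was not tested. Per2 had vessel means between 3.56 and 3.81. Its ascending aorta values, 3.80, 3.64 and 4.0, lay just above the descending aorta values, 3.56, 3.60 and 3.52, with a difference of 0.25 ± 0.19 (SE, limma adjusted p = 0.698), or 0.16 without ascending aorta replicate 3. Per2 was the only one of the 9 genes without overlap in that pair, against 15.7% of all genes.

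Per3, a Period gene that is dispensable for rhythms in mice, was at 4.15, 4.67 and 4.85 in ascending aorta, 4.35, 4.18 and 4.39 in coronary artery, 4.28, 3.95 and 4.09 in descending aorta, and 4.43, 4.06 and 3.56 in superior mesenteric artery. Its means ran in that order from 4.56 to 4.02, and the vessels overlapped. The ascending aorta mean exceeded that of superior mesenteric artery by 0.54 ± 0.24 (SE, limma adjusted p = 0.674), the only clock gene with an unadjusted p under 0.05 in that pair, against 7.22% of all genes. Without superior mesenteric artery replicate 3, which held the pancreatic transcripts, the difference was 0.31. It was 0.75 without replicate 1 of that vessel, 0.74 without ascending aorta replicate 1 and 0.82 with array weights (limma adjusted p = 0.0812), and over the 24 alternatives run it did not pass.

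Of the cryptochromes, the repressors of the activating pair, Cry1 had vessel means between 4.33 and 4.52 and arrays that overlapped in every pair. Cry2 was at 4.59, 5.02 and 4.98 in ascending aorta and 4.41, 4.16 and 4.15 in coronary artery. It was at 4.89, 5.06 and 4.50 in descending aorta and 4.93, 3.88 and 4.42 in superior mesenteric artery. All coronary artery arrays lay below all arrays of either aortic segment, while superior mesenteric artery spanned them. The ascending aorta mean exceeded that of coronary artery by 0.62 ± 0.26 (SE, limma adjusted p = 0.283), and coronary artery minus descending aorta was -0.57 ± 0.26 (SE, limma adjusted p = 0.375). In each of these pairs Cry2 was the only one of the 9 genes without overlap, against 19.3% and 22.4% of all genes, and the only one with an unadjusted p under 0.05, against 14.8% and 12.7%. The coronary artery arrays were also those with cardiomyocyte means of 10.82 to 10.97, and all of them lay below the arrays of both aortic segments in the 2 adipocyte means. Their smooth muscle means were also below those of both aortic segments, and their means of skeletal muscle and endothelial markers were above them. The part of these tissues in the Cry2 values was not tested.

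Nr1d1, the repressor of Arntl, had the widest spread within vessels. It was at 6.00, 8.28 and 8.80 in ascending aorta, 8.18, 8.52 and 8.10 in coronary artery, 8.4, 8.5 and 8.08 in descending aorta, and 8.49, 7.28 and 7.45 in superior mesenteric artery. Ascending aorta replicate 1 lay below all other arrays, followed by replicates 2 and 3 of superior mesenteric artery, and the other 9 arrays stood between 8.08 and 8.80. These 3 arrays had B cell means of 8.08, 6.71 and 6.50, against 3.64 to 4.78 in the other 9 arrays, and lower smooth muscle means than the remaining arrays of their vessels. The smooth muscle means were 6.34 in ascending aorta replicate 1, against 8.22 and 8.34 in replicates 2 and 3, and in superior mesenteric artery they were 6.25 in replicate 2 and 6.71 in replicate 3, against 9.43 in replicate 1. The SD of Nr1d1 within vessels was 0.828, at the percentile 97 of all genes. It was 0.41 (percentile 85.6) without ascending aorta replicate 1, and 0.375 (percentile 80.3) with the average of both lymphocyte lists as a covariate. These settings were chosen after the data were seen, and the array left out was also the one with the highest B cell mean. The part of admixed tissue in the Nr1d1 values was not tested. Between vessels, means of 7.69 ± 1.5 in ascending aorta, 8.27 ± 0.22 in coronary artery, 8.32 ± 0.22 in descending aorta and 7.74 ± 0.65 in superior mesenteric artery (SD, n = 3 each) overlapped in every pair. Single arrays set the order and size of these means: without ascending aorta replicate 1 that vessel had the highest mean in place of the lowest, and the largest difference between vessel means was 1.19 without ascending aorta replicate 3, against 0.63 with all arrays. In the gene annotation the span of Nr1d1 overlaps that of Thra, and the sources used here do not say which strand the probes read.

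**Figure D3:**
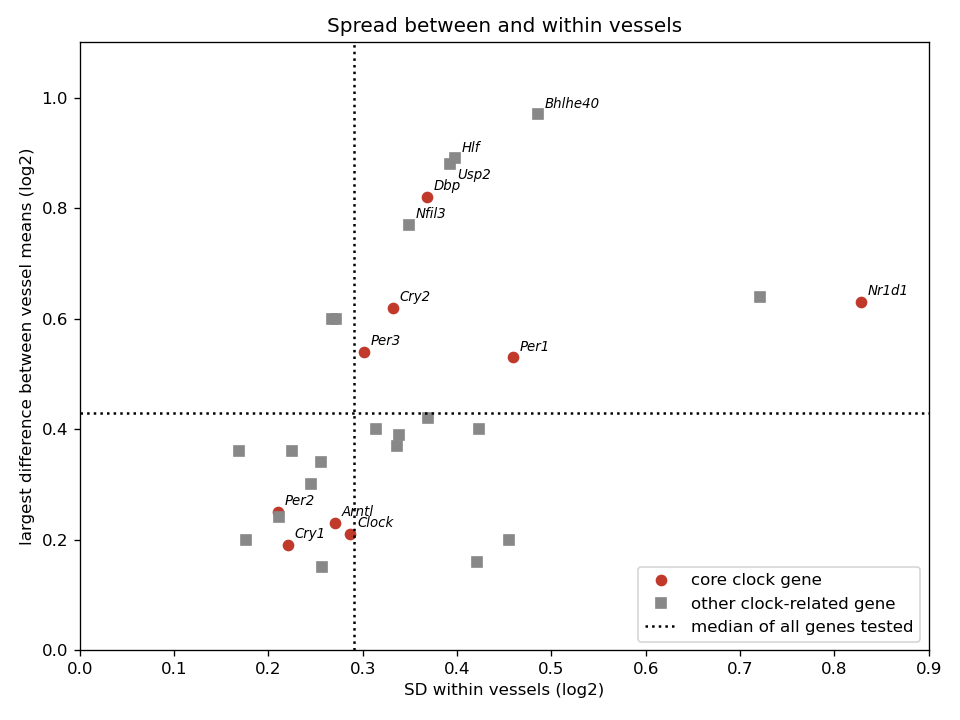
SD within vessels (horizontal axis, log2) and largest difference between vessel means (vertical axis, log2) for the 9 clock genes (red circles) and 21 other clock-related genes (grey squares), with dotted lines at the medians of all genes, 0.291 and 0.43. Nr1d1 lies farthest right at 0.828, and Dbp is the highest of the 9 clock genes at 0.82.

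Dbp, an output transcription factor whose messenger RNA follows the activating pair closely, showed the largest difference between vessel means of the 9 genes with all arrays, an order that other settings changed. Nr1d1 exceeded it without ascending aorta replicate 2 (0.93, against 0.82 for Dbp) or 3 (1.19, against 0.82) and without superior mesenteric artery replicate 1 (0.96, against 0.83). Cry2 and Per3 exceeded it with the lymphoid covariate (0.80 and 0.64, against 0.63). Another setting left out 3 arrays: superior mesenteric artery replicate 3 and replicate 1 of both aortic segments. The descending aorta array among them had a cardiomyocyte mean of 6.16. Superior mesenteric artery replicate 2 and the coronary artery arrays stayed in. In that setting Cry2, Per3 and Per1 exceeded Dbp (0.76, 0.74 and 0.72, against 0.70). Per1 also exceeded it without coronary artery replicate 2 (0.75, against 0.63) and without superior mesenteric artery replicate 3 (0.72, against 0.70). It was at 5.01, 5.45 and 5.92 in ascending aorta, 5.48, 6.11 and 5.58 in coronary artery, 5.69, 5.78 and 5.04 in descending aorta, and 4.92, 5.12 and 4.66 in superior mesenteric artery. All coronary artery arrays lay above all superior mesenteric artery arrays, and the aortic segments overlapped with both. Coronary artery averaged 5.72 ± 0.34 and superior mesenteric artery 4.90 ± 0.23 (SD, n = 3 each), a difference of 0.82 ± 0.28 (SE) with a 95% interval of 0.22 to 1.43 (limma adjusted p = 0.167). In that pair Dbp was the only one of the 9 genes without overlap, against 22.4% of all genes, and the only one with an unadjusted p under 0.05, against 14.8%. Over the alternatives run the difference was between 0.63, without coronary artery replicate 2 or with the lymphoid covariate, and 0.95, with renewed quantile normalization (limma adjusted p = 0.113). The means of cardiomyocyte, brown adipocyte and skeletal muscle markers were also higher in all coronary artery arrays than in all superior mesenteric artery arrays. Smooth muscle, B cell and immediate early means were lower in all coronary artery arrays. The part of these differences in the Dbp values was not tested.

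Other clock-related genes gave the same count of 0. Of 24 symbols listed for accessory loops, kinases, ubiquitin ligases and outputs, 21 were measured, and 0 of 21 passed limma's F test, against 4.72% of all genes, with 2 at an unadjusted p under 0.05, Hlf and Usp2, against 16.4%. In the 6 comparisons 0 of 126 differences passed, against 2.04% over all genes and comparisons, and 14 had an unadjusted p under 0.05, against 12.2%. The largest difference between vessel means had a median of 0.39 over these 21 genes and 0.43 over all genes. Hlf, a relative of Dbp that binds the same D-boxes, was at 4.18, 5.30 and 5.55 in ascending aorta, 5.86, 6.01 and 5.82 in coronary artery, 5.70, 5.62 and 5.75 in descending aorta, and 5.20, 4.67 and 5.14 in superior mesenteric artery (limma adjusted p = 0.175 in the F test). Its coronary artery arrays lay above all other arrays, and its ascending aorta and superior mesenteric artery arrays lay below those of descending aorta. In these pairs of vessels 15.7% to 22.9% of all genes had no overlap. Over the 21 genes 17 of 126 differences had no overlap, against 18.7% over all genes and comparisons. Usp2, which encodes a ubiquitin protease that cycles with the clock, was at 5.24 to 5.35 in coronary artery and 4.57 to 4.62 in descending aorta, and superior mesenteric artery held 5.28, 3.92 and 4.06 (limma adjusted p = 0.282 in the F test). Bhlhe40, an E-box repressor, differed most between vessel means, at 5.74, 5.09 and 5.46 in coronary artery against 6.77, 6.70 and 5.74 in descending aorta (limma adjusted p = 0.35 in the F test). Nfil3, the repressor that opposes DBP at D-boxes, had a largest difference of 0.77, and Bhlhe41, a relative of Bhlhe40, one of 0.64.

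**Figure D4:**
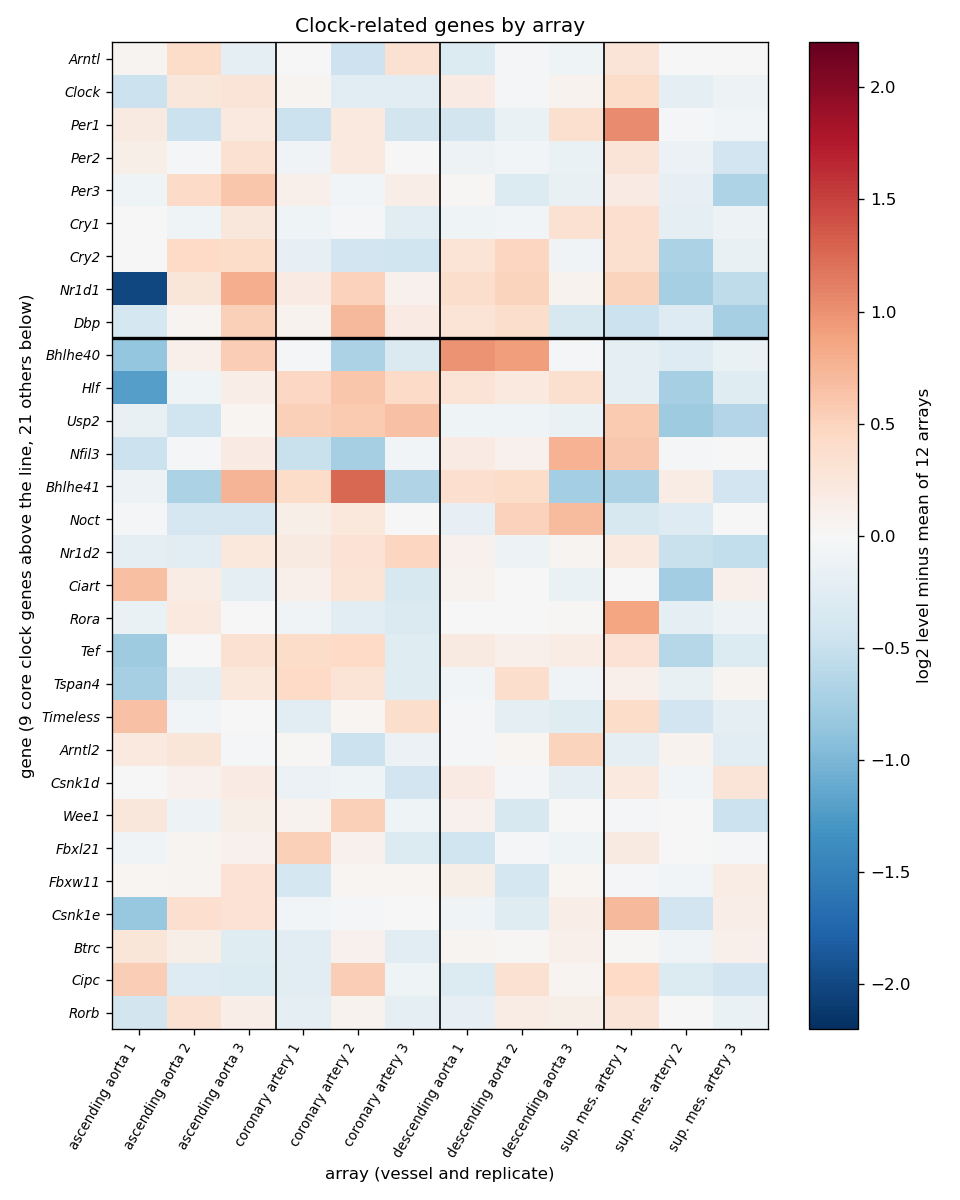
Level of each clock-related gene in each array minus the mean of that gene over the 12 arrays (colour, log2), with the 9 measured clock genes above the line and 21 others below it in order of their largest difference between vessel means. Nr1d1 and Hlf in ascending aorta replicate 1 are the deepest blue.

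Because the time of collection is not in the labels, the arrays of 1 vessel were also compared with each other, gene by gene. Levels were centred on their vessel's mean, and all 36 pairs of the 9 genes were correlated over 12 arrays, with an exact two-sided permutation of arrays within vessels, 1296 arrangements in all, whose smallest possible p is 0.000772. After Benjamini-Hochberg adjustment 0 of 36 pairs passed, by Pearson's r or Spearman's rho, and 5 had an unadjusted exact permutation p under 0.05. Without ascending aorta replicate 1 there were 3, not all of them among those 5. They were Per1 with Cry1, Per1 with Per2, and Per2 with Nr1d1. The last gave r = 0.86 there (exact permutation p = 0.0394), against r = 0.43 over 12 arrays (exact permutation p = 0.254). Of the 36 values of r, 30 were positive and 6 negative. Pairs of other genes were not counted in the same way, so these counts cannot be set against a share over all genes. Arntl and Dbp, which run in opposite phases in a tissue with a running clock, gave r = -0.47 (exact permutation p = 0.232, adjusted p = 0.61) and rho = -0.45 (exact permutation p = 0.231). Without the 2 coronary artery arrays farthest from the median of Arntl, r was -0.31. Arntl and Nr1d1, also of opposite phase, gave r = -0.04 (exact permutation p = 0.94, adjusted p = 0.946) and rho = 0.01 (exact permutation p = 0.972), and r = 0.08 without those arrays.

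The pair with the smallest p was Per1 and Cry1. They gave r = 0.87 (exact permutation p = 0.0054, adjusted p = 0.194) and rho = 0.85 (exact permutation p = 0.00694), and deviated to the same side of their vessel's mean in 10 of 12 arrays. Without superior mesenteric artery replicate 1 and coronary artery replicate 2, r was 0.78 (exact permutation p = 0.111). The count of 10 of 12 arrays was also reached by Per2 with Nr1d1, Per2 with Dbp, and Nr1d1 with Dbp. Cry2 and Nr1d1 gave r = 0.65 (exact permutation p = 0.0108, adjusted p = 0.194) and rho = 0.73 (exact permutation p = 0.017), with r = 0.65 without superior mesenteric artery replicates 1 and 2. Without ascending aorta replicate 1 that pair gave r = 0.77 (exact permutation p = 0.0694). Clock and Nr1d1 gave r = 0.87 (exact permutation p = 0.0656, adjusted p = 0.337) and rho = 0.80 (exact permutation p = 0.088). Once ascending aorta replicate 1 and that of superior mesenteric artery were left out, r turned to -0.13, so that relation rests on those 2 arrays. Clock with Per3 likewise went to r = 0.16 without them, against r = 0.80 over 12 arrays (exact permutation p = 0.0394, adjusted p = 0.284) and rho = 0.85 (exact permutation p = 0.0116). The other pairs with an unadjusted p under 0.05 were Clock with Cry2 (r = 0.73, rho = 0.68) and Per1 with Per2 (r = 0.79, rho = 0.76), whose r was 0.35 and 0.39 without the 2 arrays farthest from the median of the gene named first.

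**Figure D5:**
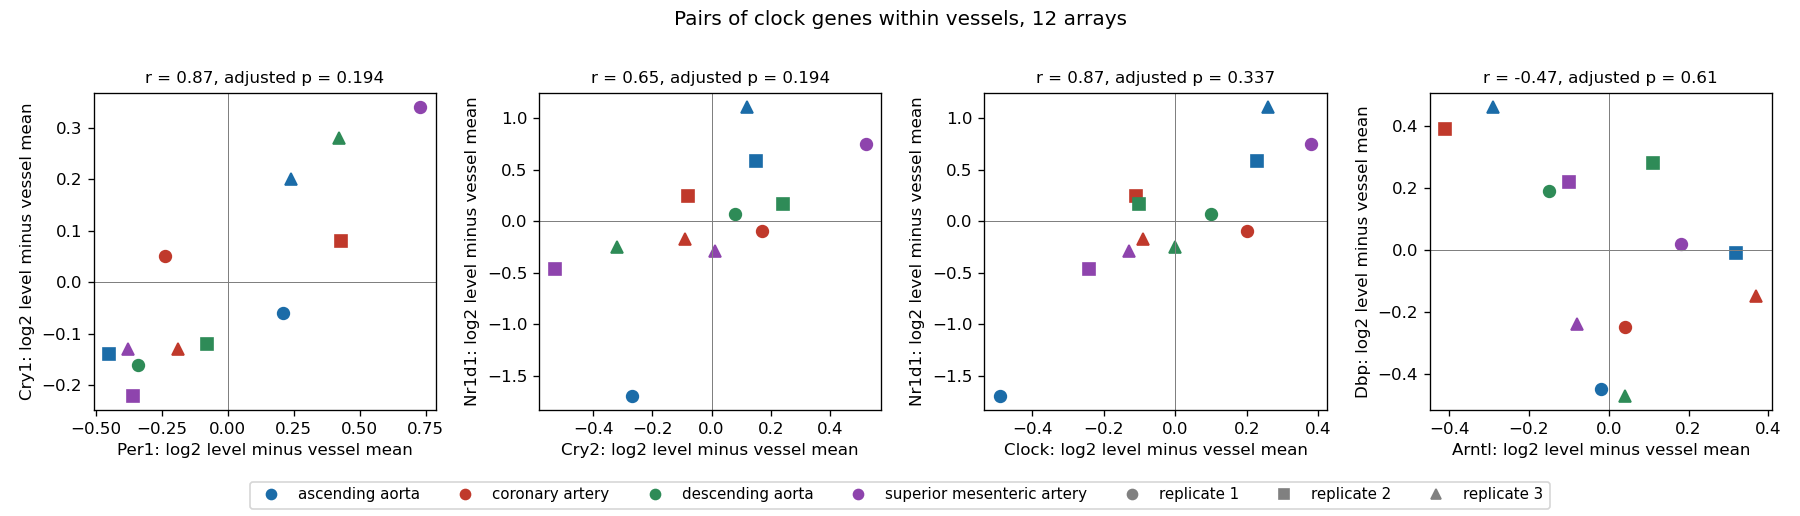
Log2 levels minus the vessel mean for 4 pairs of clock genes in the 12 arrays, with colours for vessels and symbols for replicates. Per1 and Cry1 run together (r = 0.87), Cry2 with Nr1d1 and Clock with Nr1d1 have ascending aorta replicate 1 far below, and Arntl with Dbp slopes the other way (r = -0.47), none past the threshold after adjustment.

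Among 10560 named genes outside the list whose levels ranged over at least 1 log2 unit, those most like Arntl across the 12 arrays were Zc3h12c (r = 0.87), Dkk4 (r = 0.87), Manba (r = 0.80), Actr5 (r = 0.78) and Rell1 (r = 0.77). The genes most opposite to Arntl were Pigx (r = -0.86), Bhlhe41 (r = -0.82) and Ppp4r2 (r = -0.81). Bhlhe41, an E-box repressor of the clock, was at 5.25 in coronary artery replicate 2, where Arntl was lowest at 4.82, and at 3.29 in ascending aorta replicate 2, where Arntl was highest at 5.67. The lowest Bhlhe41 value, 3.24, was in descending aorta replicate 3, where Arntl, at 5.18, lay below its mean of 5.27 over the arrays. Most like Dbp were Tbx18 (r = 0.89), Tecr, Chmp4c, Alad and Lmo4 (r = 0.85 each), and most opposite were Zswim6 (r = -0.87), Arid3a (r = -0.87) and Bmf (r = -0.85). These values of r over 12 arrays are the extremes of a search over all those genes and are given as a description, and the arrays share vessel and admixed tissue.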

How the data were processed

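Per the submitters' processing notes, RMA and the Partek software, version 6.6, were used, with no role or order given; per the labels' protocols, 6 ug of total RNA was labelled for each array. The authors deposited log2 values of 35556 probe sets for the 12 arrays, already normalized as far as their like medians show; how exactly is not stated in the sources. Scanner files were not used here. Of the probe sets 21789 had 1 gene symbol in the platform annotation, 1621 several and 12146 none; the last 2 kinds were left out. For 999 genes with several probe sets the one with the highest mean was kept, giving 19938 genes; each of the 9 measured clock genes has 1 probe set. Detection calls were not used.

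Groups follow the tissue label. All genes and all 12 arrays entered 1 linear model, with a mean for each vessel, in limma 3.58.1 (R 4.3.3, with data.table at version 1.17.8), leaving 8 residual degrees of freedom. The moderated F test and 6 pairwise contrasts were adjusted by Benjamini-Hochberg over all genes at a threshold of 0.05; SE and 95% intervals come from that fit. The procedure was tested on simulated data. Figures used Python 3.11.15 and matplotlib 3.10.9. The clock genes and all lists were chosen with earlier results of these data known. The list of other clock-related genes holds Noct under 2 symbols and Tspan4, whose place in the clock is unsure; of the others named, all come from a rule that took those past a test and the 5 with the largest difference between vessel means. Genes most like Arntl and Dbp are the 5 highest and 3 lowest by Pearson's r. Alternatives covered normalization, filtering, probe set choice, weights, variance model, threshold, adjustment, replicate number as a block, a lymphoid covariate and arrays left out. Replicate numbers were checked as pairs: deviations of same-numbered arrays from their vessel means correlated between -0.251 and 0.089 over 18 pairs, so they were not treated as paired.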

Additional observations from a re-analysis of the deposited data

How the results depend on the processing

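The count of clock genes past limma's threshold remained 0 of 9 under each alternative run, for the F test (22 settings, lowest limma adjusted p = 0.111, with array weights) and for each of the 6 comparisons (24 settings each). Among these settings, a stricter threshold of 0.01 could not have raised the count. Averaging probe sets left the values of the clock genes unchanged, as each has 1 probe set. The lowest limma adjusted p in a comparison was 0.074, for Dbp between coronary artery and superior mesenteric artery without ascending aorta replicate 1. With the replicate number as a block the count was also 0 in every comparison, and Dbp in that pair had a limma adjusted p of 0.176. Correlations within vessels gave 0 pairs under each of 15 alternatives, the block among them. Most of these left out an array, which leaves fewer arrangements and a higher smallest possible p. A single pair at that p could not pass there after adjustment, so these counts of 0 say little. Of the 54 differences between vessels, 28 changed sign in at least 1 setting, and the largest of these had a size of 0.63. Only the Dbp difference of 0.82 between coronary artery and superior mesenteric artery was larger than that. The median SD within vessels over the 9 genes was between 0.259 and 0.342, against 0.301. That of Nr1d1 fell to 0.457 without superior mesenteric artery replicate 3 and replicate 1 of both aortic segments. With 3 arrays per vessel and no detection calls, a 2-fold difference was not excluded for Nr1d1 in any comparison, and which levels lie near background is not known.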
